A study of Mus musculus with 9 samples.

Results

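The genes described here are 41 genes of the contractile apparatus, the actin cytoskeleton and the mural cells of vessels, taken by symbol from a list, with no threshold on their measured values. Mural cells are the pericytes and smooth muscle cells that wrap the endothelium. Of the 56620 loci in the expression table, 13831 reached a mean of at least 1 FPKM over 9 libraries and were tested, and 38 of the 41 listed genes were among them. FPKM is a count of sequenced fragments scaled for the length of a transcript and for the mapped fragments of a library, so levels of different genes can be set side by side. The 3 listed genes below that level were Myh11 (0.236 FPKM), Pdgfra (0.664 FPKM) and Rgs5 (0.757 FPKM).

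The cells were sold as primary mouse lung cells and are labelled as endothelial cells of pulmonary microvessels. All were cultured for 48 h, in 3 groups of 3 libraries. HO-rWNT5A cells had 85% O2 and 100 ng/ml rWNT5A, a recombinant preparation of the secreted ligand WNT5A, HO cells had 85% O2 alone, and RA cells had room air at 21% O2. Whether each library had a culture of its own is not said, so p-values here weigh only library-to-library spread, part or all of which could be technical. Levels below are FPKM scaled between libraries, written as scaled FPKM where groups are compared.

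Contraction in smooth muscle and in non-muscle cells rests on the same machine, in which myosin filaments pull on actin filaments that are held together by cross-linkers and anchored at focal adhesions. Phosphorylation of the myosin regulatory light chain switches the motor on, and tropomyosin, caldesmon and calponin lie along the actin filament and tune it. In smooth muscle and pericytes many of these genes are driven by serum response factor (SRF) with its cofactor myocardin, which bind the CArG box, an element of CC, a core of A and T, and GG. Endothelial cells carry non-muscle forms of the same machine.

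The labelled cell type was checked against its defining markers. Of 13 endothelial markers, 10 had a mean under 1 FPKM, among them Pecam1 (0.093 FPKM), the cadherin gene Cdh5 (0.0543 FPKM) and Vwf (0.0441 FPKM). Flt1, a VEGF receptor (37.9 FPKM), and Emcn (10.1 FPKM) were the highest. Of the smooth muscle and mural genes, Acta2 (1574 FPKM), Tagln (886 FPKM), Des (366 FPKM), Csrp1 (259.5 FPKM), Mcam (88.7 FPKM), Smtn (58.3 FPKM) and Cspg4 (46.3 FPKM) lay above these. Cnn1 (36.0 FPKM), Pdgfrb (15.5 FPKM), Actg2 (14.02 FPKM), Lmod1 (9.45 FPKM), Mylk (3.20 FPKM), Myocd (2.77 FPKM), Rgs5 (0.757 FPKM) and Myh11 (0.236 FPKM) lay below Flt1. Of 25 further mural markers, 13 had a mean under 1 FPKM and 5 had at least 5 FPKM. Among the low ones were the pericyte markers Cox4i2 (0.441 FPKM), Anpep (0.237 FPKM), Abcc9 (0.142 FPKM) and Kcnj8 (0.0375 FPKM). The cells are therefore named below by their treatment and not by a cell type. Over all genes, 273 passed in HO against RA. This count was 225, 103 or 707 when HO replicate 1, 2 or 3 was left out, and 26, 3 or 16 when RA replicate 1, 2 or 3 was left out.

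The actins were the most abundant genes of the list. Actb, the cytoplasmic beta-actin, had 3586 ± 282 FPKM (SD over 9 libraries), Actg1, cytoplasmic gamma-actin, had 1994 ± 150, and Acta2, the actin of vascular smooth muscle, had 1574 ± 144. They ranked 6, 10 and 13 of the 13831 tested genes. Actg2, the actin of enteric smooth muscle, had 14.02 ± 3.08 FPKM. Acta2 (chr19:34241090-34255590, GRCm38, GENCODE M21, minus strand) thus made 19.5% to 23.5% of the summed FPKM of the 4 actins, and Actg2 made 0.15% to 0.264%. The striated-muscle actins were far lower, with 1.65 ± 0.473 FPKM for Acta1 and 0.0625 ± 0.0514 FPKM for Actc1.

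The 4 actin transcripts are related, which matters for how fragments were shared between them. Their coding sequences were 81.5% to 88.6% identical, the lowest value between Acta2 and Actg1 and the highest between Actb and Actg1. The first 30 coding bases, from GENCODE M21 transcripts on GRCm38, are printed to show where the 4 differ at their start. This stretch does not stand for the whole coding sequence. The coding sequences have 377 codons in Acta2, 376 in Actg2 and 375 in Actb and Actg1, so each was aligned with that of Acta2 over its whole length, with gaps. Capitals mark bases that differ from the aligned Acta2 base, 4 in Actg2, 10 in Actb and 11 in Actg1. The alignment passes over 3 Acta2 bases in this stretch for Actg2 and 6 for Actb and Actg1.
Acta2: atgtgtgaagaggaagacagcacagccctg
Actg2: atgtgtgaagaagaGaCcacCgccctTgtg
Actb: atggaTgaCgaTaTcGcTgcGctggtCGTc
Actg1: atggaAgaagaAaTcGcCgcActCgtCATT
Fragments that fit several actins equally well cannot be given to one of them with certainty. A single transcript carried 99.6% of the Acta2 sum.

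Acta2 had 1684, 1473 and 1452 scaled FPKM in the 3 HO-rWNT5A libraries, 1789, 1553 and 1333 in the HO libraries, and 1594, 1565 and 1725 in the RA libraries. The HO libraries spanned both ends of this range, and all 3 groups overlapped. The log2 difference of HO from RA was -0.07 ± 0.13 (SE; 95% interval -0.35 to 0.21; limma adjusted p = 0.80). HO-rWNT5A differed from HO by -0.01 (interval -0.30 to 0.27). Actb, Actg1 and Actg2 passed the threshold in no comparison either, and Actg2 had the widest interval of the 4, -0.68 to 0.10 for HO against RA.

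**Figure D1:**
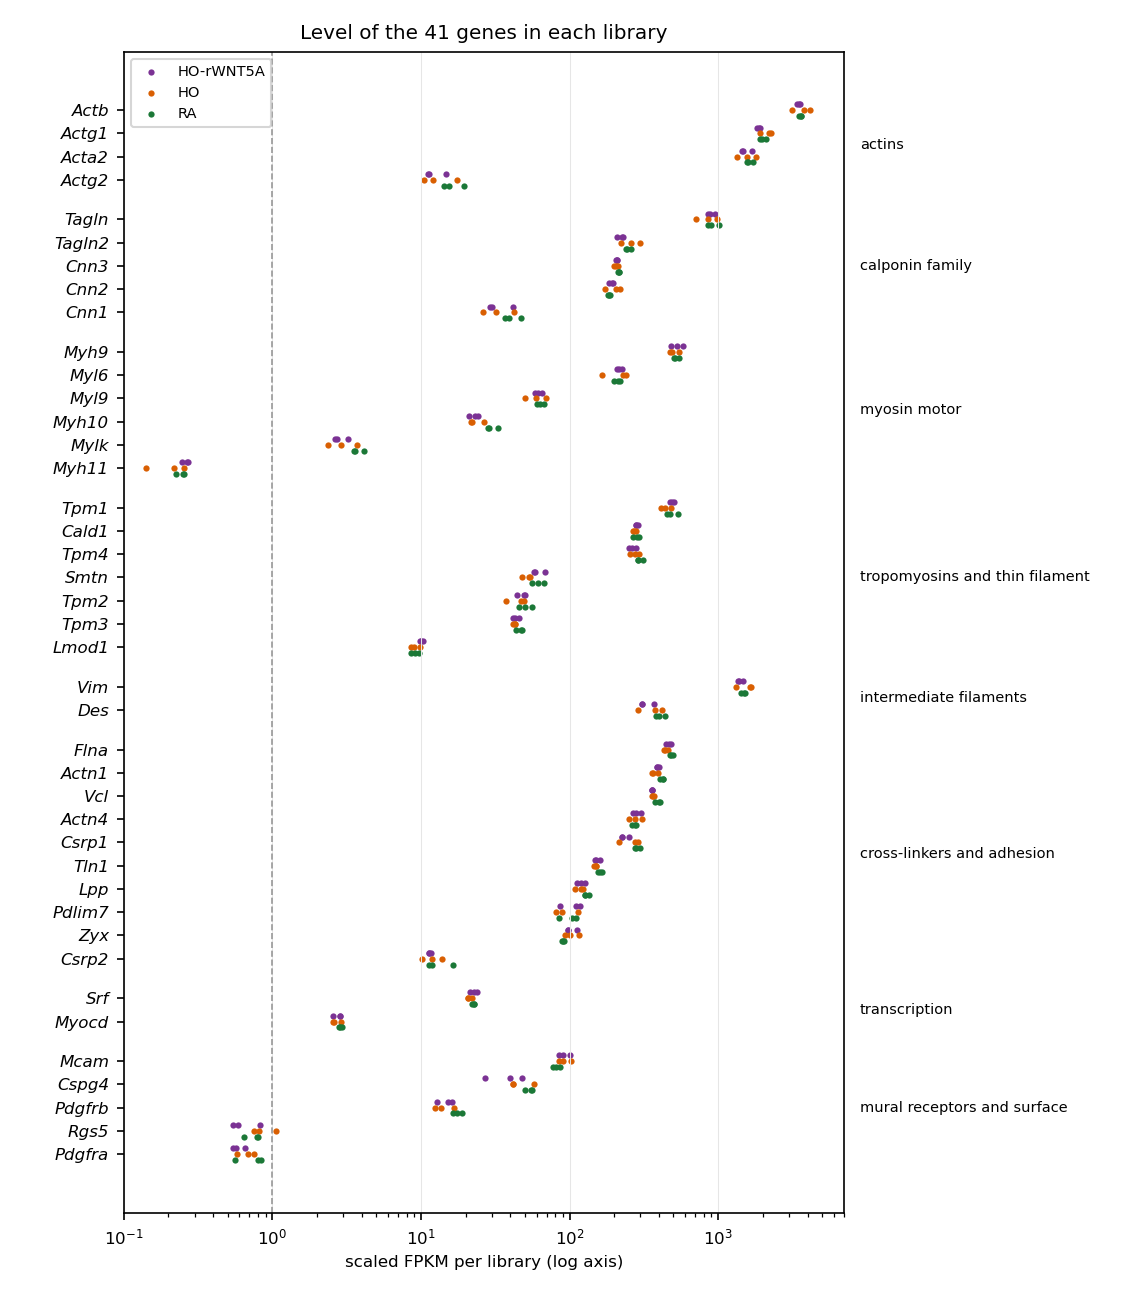
Level of each of the 41 genes in each library, as scaled FPKM on a log axis, grouped by role, with HO-rWNT5A points above HO and RA points and a dashed line at 1 FPKM. Actb, Actg1, Acta2 and Vim lie above 1000 in every library, and Myh11 and Pdgfra lie below 1 in every library.

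The calponin family, a set of actin-binding proteins that share a calponin domain, was led by Tagln. Tagln encodes transgelin (SM22), an early smooth muscle marker, and had 886 ± 88.8 FPKM, rank 23. Its values were 949, 851 and 876 scaled FPKM in HO-rWNT5A, 978, 851 and 712 in HO, and 851, 888 and 1015 in RA. The groups overlapped, and the log2 differences were -0.12 for HO against RA (interval -0.40 to 0.15), 0.09 for HO-rWNT5A against HO (interval -0.19 to 0.36) and -0.04 for HO-rWNT5A against RA (interval -0.31 to 0.24).

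Tagln2, the broadly expressed relative, was at 242 FPKM, so Tagln held 74.2% to 80.7% of the pair. It was the second of only 2 listed genes with an unadjusted p under 0.05 in HO-rWNT5A against HO, at 227, 208 and 228 scaled FPKM in HO-rWNT5A and 260, 296 and 224 in HO. The log2 difference was -0.23 ± 0.10 (limma adjusted p = 0.52), and the lowest HO library lay within the HO-rWNT5A range. Of the calponins, Cnn3 and Cnn2, found in many cells, had 209 and 191 FPKM, and Cnn1, the calponin of differentiated smooth muscle, had 36.0 ± 7.09. Cnn1 made 6.56% to 10.5% of the calponin sum. None of the 5 genes passed in any comparison.

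The myosin motor was of the non-muscle type. Myh9, the heavy chain of non-muscle myosin IIA, had 519 ± 35.2 FPKM and made 94.0% to 96.0% of the 3 heavy chains. Myh10, the heavy chain of non-muscle myosin IIB, had 25.4 ± 3.93 FPKM. Myh11, the smooth muscle heavy chain and the marker most specific to mature smooth muscle, stayed between 0.141 and 0.272 scaled FPKM in the 9 libraries, or 0.0432% of the heavy chains. Myl6, the essential light chain, had 213 FPKM, Myl9, a regulatory light chain of smooth muscle and non-muscle myosin, had 61.6, and Mylk, the kinase that phosphorylates it, had 3.20.

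Myh10 (chr11:68691559-68816632, GRCm38, plus strand) was the one listed gene past the threshold, and only in HO-rWNT5A against RA. Its values were 24.2, 23.3 and 21.0 scaled FPKM in HO-rWNT5A, 26.6, 21.7 and 22.2 in HO, and 32.8, 28.5 and 28.3 in RA. Every HO-rWNT5A and HO library lay below the lowest RA library. The log2 difference was -0.37 ± 0.09 for HO-rWNT5A against RA (interval -0.57 to -0.17; limma adjusted p = 0.048) and -0.34 ± 0.09 for HO against RA (interval -0.54 to -0.14; limma adjusted p = 0.089). HO-rWNT5A and HO differed by -0.03 (interval -0.23 to 0.16). Of all tested genes, 21.4% had groups that did not overlap in HO vs RA. This share was 13.0% in HO-rWNT5A vs HO and 32.8% in HO-rWNT5A vs RA, and it applies to the genes below as well. The comparisons with RA share the RA libraries, so the pair is not independent. Myh10 made 4.12% ± 0.107 of the heavy chains in HO-rWNT5A (SD, n = 3) and 4.45% ± 0.198 in HO, against 5.42% ± 0.552 in RA. Shares of a family were not tested, here or below.

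The call on Myh10 was at the edge of the threshold. It did not pass in 9 of 19 alternatives, among them each of the 6 that leave out 1 HO-rWNT5A or RA library, where limma's adjusted p was 0.0816 to 0.162, while the log2 difference stayed between -0.44 and -0.31 throughout. The other 3 were no filter on low values (0.14), scaling to equal totals (0.059) and no variance trend (0.064). In HO against RA, Myh10 passed without HO replicate 1 (log2 difference -0.43, limma adjusted p = 0.040) and in no other of 20 alternatives. Its main transcript, with 80.6% of the gene, had limma adjusted p = 0.24 in the test of single transcripts.

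**Figure D2:**
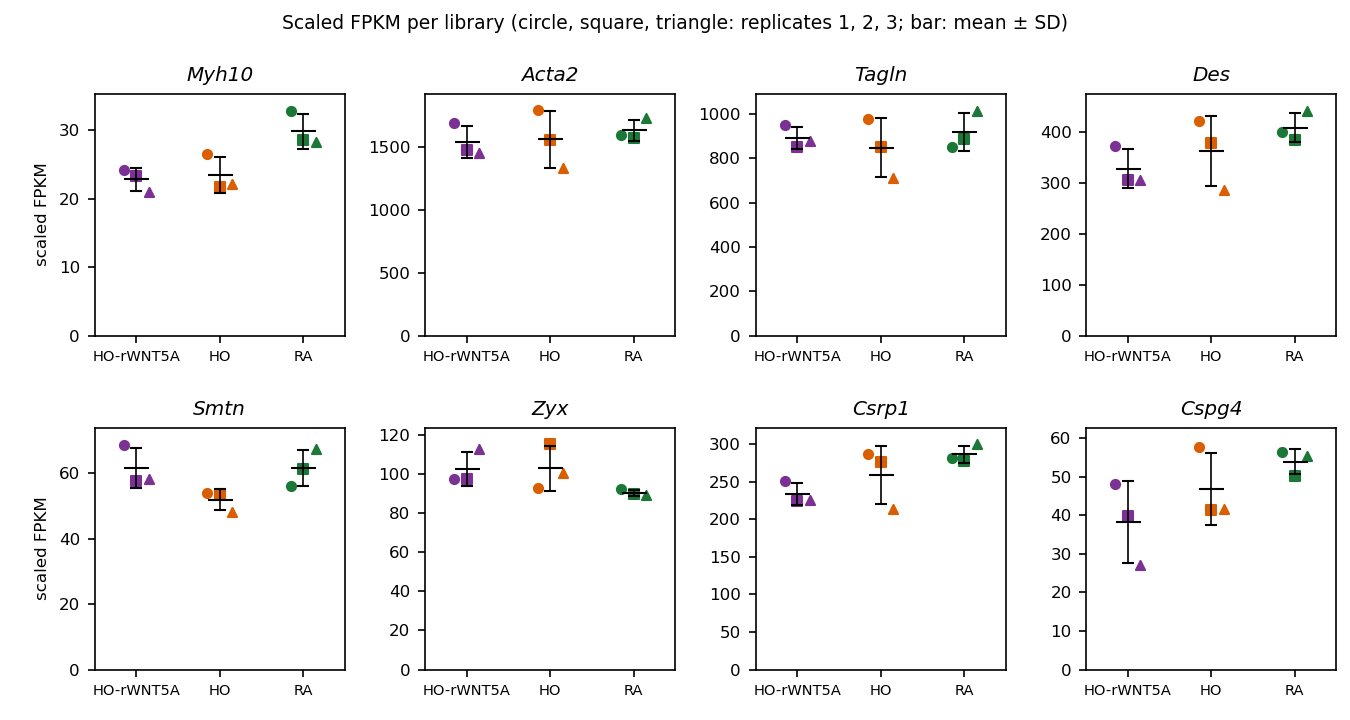
Scaled FPKM of 8 of the genes in each library, with HO-rWNT5A, HO and RA from left to right, symbols for replicates 1 to 3 and bars for mean ± SD of 3 libraries. For Myh10 all HO-rWNT5A and HO libraries lie at or below 26.6, under the lowest RA library at 28.3, while Acta2 and Tagln overlap between the groups.

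The other motor genes did not pass. Mylk had 3.22, 2.65 and 2.73 scaled FPKM in HO-rWNT5A, 3.69, 2.36 and 2.89 in HO, and 3.56, 3.58 and 4.14 in RA. HO-rWNT5A lay wholly below RA (log2 difference -0.30 ± 0.12, limma adjusted p = 0.19), while the HO libraries ran into the RA range. Myl6 and Myl9 differed by at most 0.10 in either direction in all 3 comparisons, and Myh9 by at most 0.08.

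Along the thin filament, Tpm1 led with 474 ± 36.5 FPKM, followed by Tpm4 (279 FPKM) and the caldesmon gene Cald1 (279 FPKM). Tropomyosins are coiled coils that cover the myosin sites on actin, and their genes give muscle and non-muscle forms by alternative promoters and exons. Tpm1 made 57.8% ± 0.946 of the 4 tropomyosins in HO-rWNT5A, 55.1% ± 0.577 in HO and 55.3% ± 1.00 in RA (SD, n = 3), and Tpm4 made 31.4% ± 0.7401, 34.1% ± 0.305 and 33.7% ± 1.046 in the same groups. The HO-rWNT5A libraries held the 3 highest Tpm1 shares and the 3 lowest Tpm4 shares of the 9. Both are large parts of 1 sum, so these shares are not independent. As levels, neither gene passed in any comparison, and Tpm1 differed between HO-rWNT5A and HO by 0.14 (interval -0.06 to 0.34).

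Smtn, which encodes smoothelin, a structural protein of contractile smooth muscle, had the smallest p of the list in HO-rWNT5A against HO. It had 68.7, 57.7 and 58.3 scaled FPKM in HO-rWNT5A, 53.8, 53.7 and 48.1 in HO, and 56.0, 61.3 and 67.2 in RA. The HO libraries lay below all the others. The log2 difference was 0.24 ± 0.09 for HO-rWNT5A against HO (limma adjusted p = 0.50) and -0.24 ± 0.09 for HO against RA (limma adjusted p = 0.19), and neither passed. Since both use the HO libraries, their opposite signs are not independent. Lmod1, leiomodin, which nucleates actin filaments in smooth muscle, had 9.45 ± 0.624 FPKM, and its 3 HO-rWNT5A values, 9.83 to 10.4, lay just above the 8.63 to 9.82 of HO and the 8.63 to 9.70 of RA.

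**Figure D3:**
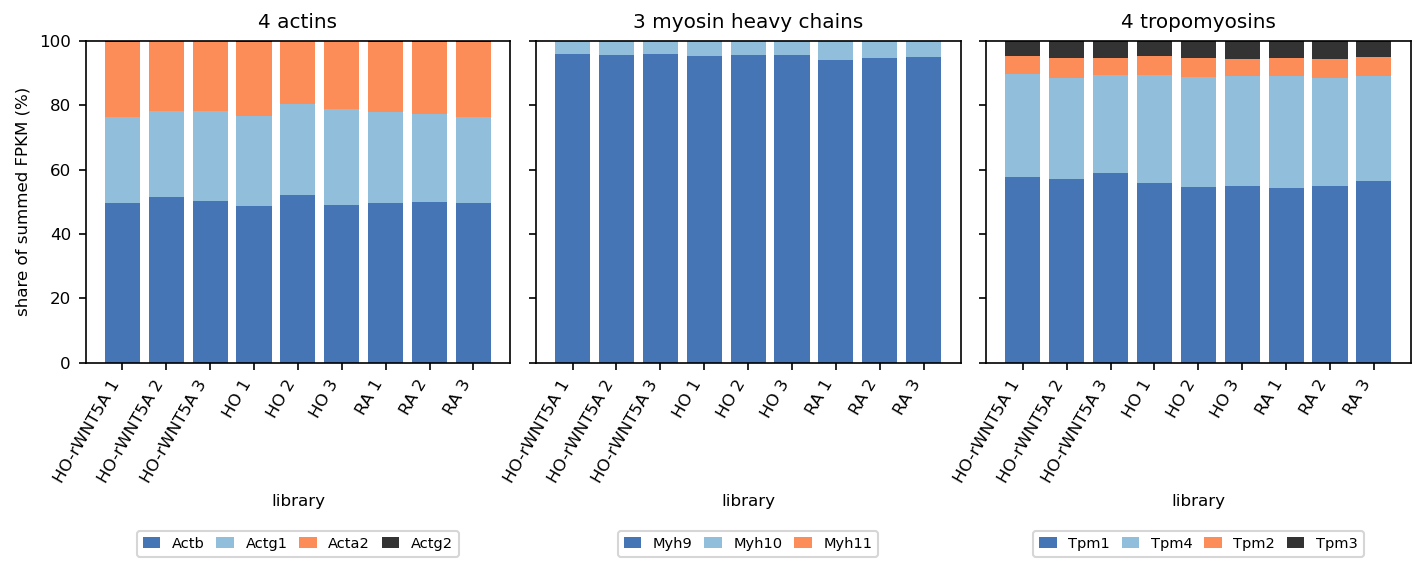
Share of each gene in the summed FPKM of the 4 actins, the 3 myosin heavy chains and the 4 tropomyosins, in percent, for each of the 9 libraries. Acta2 holds 19.5% to 23.5% of the actins and Myh9 at least 94.0% of the heavy chains in each library, and the Myh11 and Actg2 shares are too small to see.

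Both intermediate filament genes were abundant. Vim, vimentin of mesenchymal cells, had 1475 ± 115 FPKM, and Des, desmin of muscle and pericytes, had 366 ± 54.5. Des had 371, 306 and 306 scaled FPKM in HO-rWNT5A, 421, 377 and 287 in HO, and 401, 384 and 440 in RA. HO-rWNT5A lay below RA without overlap (log2 difference -0.32 ± 0.14, interval -0.62 to -0.02, limma adjusted p = 0.21), and HO overlapped both. Des made 18.9% ± 1.20 of the Des and Vim sum in HO-rWNT5A, 18.9% ± 1.30 in HO and 21.6% ± 0.9204 in RA.

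The cross-linkers and adhesion proteins were expressed at 12.2 to 465 FPKM. Flna (filamin A), which joins actin filaments into a network, had 465 FPKM, Actn1 and Actn4 (alpha-actinins), which bundle them, had 394 and 278, and Vcl (vinculin) and Tln1 (talin), which tie them to integrins, had 372 and 154. The 5 genes Actn1, Lpp, Flna, Vcl and Tln1 were lower in every HO library than in any RA library, by 0.17, 0.14, 0.13, 0.11 and 0.10 on the log2 scale, with limma adjusted p of 0.21 to 0.37. None passed, and 21.4% of all tested genes had groups that did not overlap in this comparison. Vcl had 359, 357 and 358 scaled FPKM in HO-rWNT5A, 366, 368 and 361 in HO, and 402, 378 and 403 in RA.

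Zyx, which encodes zyxin, a LIM protein that moves to strained actin fibres, lay the other way. Zyx had 97.4, 97.4 and 112.6 scaled FPKM in HO-rWNT5A, 92.9, 115.3 and 100.5 in HO, and 92.1, 89.7 and 89.0 in RA. All 6 libraries at 85% O2 lay above the RA range, by 0.18 on the log2 scale in both comparisons with RA (limma adjusted p = 0.29 for HO and 0.27 for HO-rWNT5A). Groups did not overlap for 21.4% of all tested genes in HO vs RA and for 32.8% in HO-rWNT5A vs RA. Csrp1, a LIM protein of smooth muscle, had 250.3, 225 and 225 scaled FPKM in HO-rWNT5A, 287, 276 and 214 in HO, and 282, 277 and 300 in RA. HO-rWNT5A lay below RA (log2 difference -0.29 ± 0.11, limma adjusted p = 0.14), and the call passed in 3 of 19 alternatives. Its relative Csrp2 was at 12.2 FPKM, and Lpp and Pdlim7, LIM proteins of adhesions and stress fibres, were at 122 and 99.5 FPKM, with no call.

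The transcription factor Srf had 22.1 ± 0.984 FPKM and its muscle cofactor gene Myocd 2.77 ± 0.155, with no call in any comparison. Srf differed from RA by -0.09 in HO (interval -0.21 to 0.03) and by 0.01 in HO-rWNT5A (interval -0.11 to 0.13). The CArG box that SRF binds was looked for in promoter windows from RefSeq (GRCm38.p6), which run from 250 bases before to 50 after a start. Of the 41 genes, 34 had 39 windows, and Actb, Actg2, Csrp2, Myh11, Myocd, Pdgfrb and Tagln had none.

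A CArG box of 10 bases, read on both strands, lay in 6 windows of the listed genes, or 15.4%, against 1.63% of all 32851 windows. A looser form with 1 G or C in its 6-base core, which cannot match the same bases as the strict form, brought this to 10 windows, or 25.6%, against 9.98% of all windows. The 6 genes with the strict form were Actg1, Cnn2, Myl6, Myl9, Srf and Vcl, and Srf held a pair of boxes. Acta2 held the looser form at 2 places, and Des, Cnn1 and Smtn held neither. A match of letters describes the window and does not show that SRF bound there.

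The stretches around the boxes are printed, 5′ to 3′ on the strand of the gene with boxes of either form in capitals, to show how the same element recurs near genes with different roles. They were chosen for their boxes. Their positions are chr19:34255378-34255477 for Acta2 (minus strand), chr2:156775283-156775394 for Myl9 (plus), chr17:46556195-46556264 for Srf (minus), chr11:120348556-120348605 for Actg1 (minus), chr14:20929151-20929200 for Vcl (plus), chr10:79988524-79988573 for Cnn2 (plus) and chr10:128493030-128493079 for Myl6 (minus).
Acta2: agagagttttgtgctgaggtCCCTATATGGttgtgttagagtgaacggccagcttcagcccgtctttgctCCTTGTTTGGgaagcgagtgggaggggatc
Myl9: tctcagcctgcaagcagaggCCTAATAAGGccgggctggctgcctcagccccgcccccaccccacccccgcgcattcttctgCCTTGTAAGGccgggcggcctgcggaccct
Srf: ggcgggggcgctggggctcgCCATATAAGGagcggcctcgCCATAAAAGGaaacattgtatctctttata
Actg1: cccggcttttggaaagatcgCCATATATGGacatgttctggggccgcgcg
Vcl: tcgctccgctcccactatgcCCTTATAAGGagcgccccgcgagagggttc
Cnn2: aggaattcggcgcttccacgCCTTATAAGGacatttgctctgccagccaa
Myl6: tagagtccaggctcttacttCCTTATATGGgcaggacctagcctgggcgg
None of these 7 genes passed the threshold in any comparison. The box in Vcl and the box in Cnn2 have the same 10 letters, 218 to 227 bases and 47 to 56 bases before the start.

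Among the receptors and surface proteins of mural cells, Mcam (CD146) had 88.7 FPKM, Cspg4 (NG2, a proteoglycan of pericytes) had 46.3 and Pdgfrb, the receptor through which endothelial PDGF-B recruits pericytes, had 15.5. Rgs5, a G-protein regulator used as a pericyte marker, and Pdgfra, a fibroblast receptor, stayed near or below 1 FPKM. Cspg4 had the largest difference of the list, at 48.0, 39.7 and 27.0 scaled FPKM in HO-rWNT5A, 57.6, 41.4 and 41.5 in HO, and 56.2, 50.2 and 55.2 in RA. HO-rWNT5A lay below RA (log2 difference -0.52 ± 0.18, interval -0.93 to -0.11, limma adjusted p = 0.14), and its 3 libraries were themselves spread between 27.0 and 48.0. Pdgfrb had 16.2, 15.3 and 12.7 scaled FPKM in HO-rWNT5A, 16.7, 12.4 and 13.6 in HO, and 18.8, 17.5 and 16.5 in RA, with log2 differences of -0.25 ± 0.11 (limma adjusted p = 0.24) and -0.29 ± 0.11 (limma adjusted p = 0.20) from RA. Mcam lay the other way, 0.18 higher in HO than in RA (interval -0.02 to 0.37). In bulk RNA, fewer cells of a type and less RNA per cell cannot be told apart.

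Of 25 further mural markers, 13 had a mean under 1 FPKM. Abcc9 and Kcnj8, the subunits of a potassium channel of pericytes, had 0.142 and 0.0375 FPKM, and Vtn and Higd1b were at 0 in the table. The highest were the forkhead genes Foxs1 (41.3 FPKM) and Foxc1 (13.8 FPKM). Of 31 further smooth muscle genes, 10 were under 1 FPKM, among them Pln (listed at 0), Sgca and Synpo2, while the small heat shock protein gene Hspb1 (228 FPKM) and the caveola genes Cav1 and Cavin1 (127 and 116 FPKM) were high. Of 28 striated muscle genes, 24 were under 1 FPKM, with Tnnt2 (6.68 FPKM) the highest. Of 12 fibroblast markers 6 were under 1 FPKM, Lum and Dpt at or near 0, while Col1a1 had 183 FPKM.

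The list as a whole differed little between HO and RA. None of the 38 tested genes passed at an adjusted p under 0.05 in limma, against 1.97% of all tested genes, and 6 (15.8%) had an unadjusted p under 0.05, against 18.1% of all. Those 6, Myh10, Smtn, Pdgfrb, Actn1, Mylk and Tpm3, were all lower in HO. The median log2 difference was -0.11, with 30 of 38 below 0, against a median of -0.00 over all genes tested. Leaving out HO replicate 3, alone or together with HO replicate 2, also gave no call among the 38. The groups did not overlap for 11 genes (28.9%), 10 of them lower in HO and 1 higher, against 21.4% of all genes.

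In HO-rWNT5A against HO no listed gene passed either, and 2 (5.26%), Smtn and Tagln2, had an unadjusted p under 0.05. Over all genes these shares were 0.00723% and 9.2%. The median was 0.02, against 0.00 over all genes, with 17 of 38 below 0. The groups were apart for 3 genes (7.89%, against 13.0% of all), Smtn and Lmod1 higher and Vcl lower.

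In HO-rWNT5A against RA, Myh10 alone passed, 1 of 38, against 4.26% of all genes. At an unadjusted p under 0.05 there were 7 (18.4%, against 20.9% of all), namely Myh10, Cspg4, Csrp1, Mylk, Des, Vcl and Pdgfrb, each lower in HO-rWNT5A. The median was -0.07, against -0.00 over all genes, with 26 of 38 below 0, and the groups were apart for 13 genes (34.2%, against 32.8% of all), 11 lower and 2 higher. In limma's moderated F test of any difference among the groups, none of the 38 passed (2.52% of all genes did) and 2 had an unadjusted p under 0.05 (20.0% of all genes). The smallest adjusted p was 0.076, for Myh10. With HO replicate 3 left out Csrp1 and Tagln2 passed this test, and with HO replicate 1 left out Myh10 did.

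Each interval was made for 1 gene in 1 comparison. The intervals are not joint over the 38 genes, so they do not bound the list as a whole. They use a spread pooled over the groups. The median SD of the listed genes was 0.155 log2 units in HO and 0.0676 in RA. Part or all of this spread could be technical, so the intervals may leave out spread between cultures. The scale of log2(scaled FPKM + 1) understates changes of low genes such as Mylk and Myocd. All 38 intervals lay within 1 log2 unit of 0 in each comparison, and within 0.5 for 32 genes in HO against RA, 37 in HO-rWNT5A against HO and 31 in HO-rWNT5A against RA. The outermost lower bounds belonged to Cnn1 in HO against RA (-0.70) and to Cspg4 in HO-rWNT5A against HO (-0.72) and against RA (-0.93). A missed threshold does not show that a gene was unaffected.

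**Figure D4:**
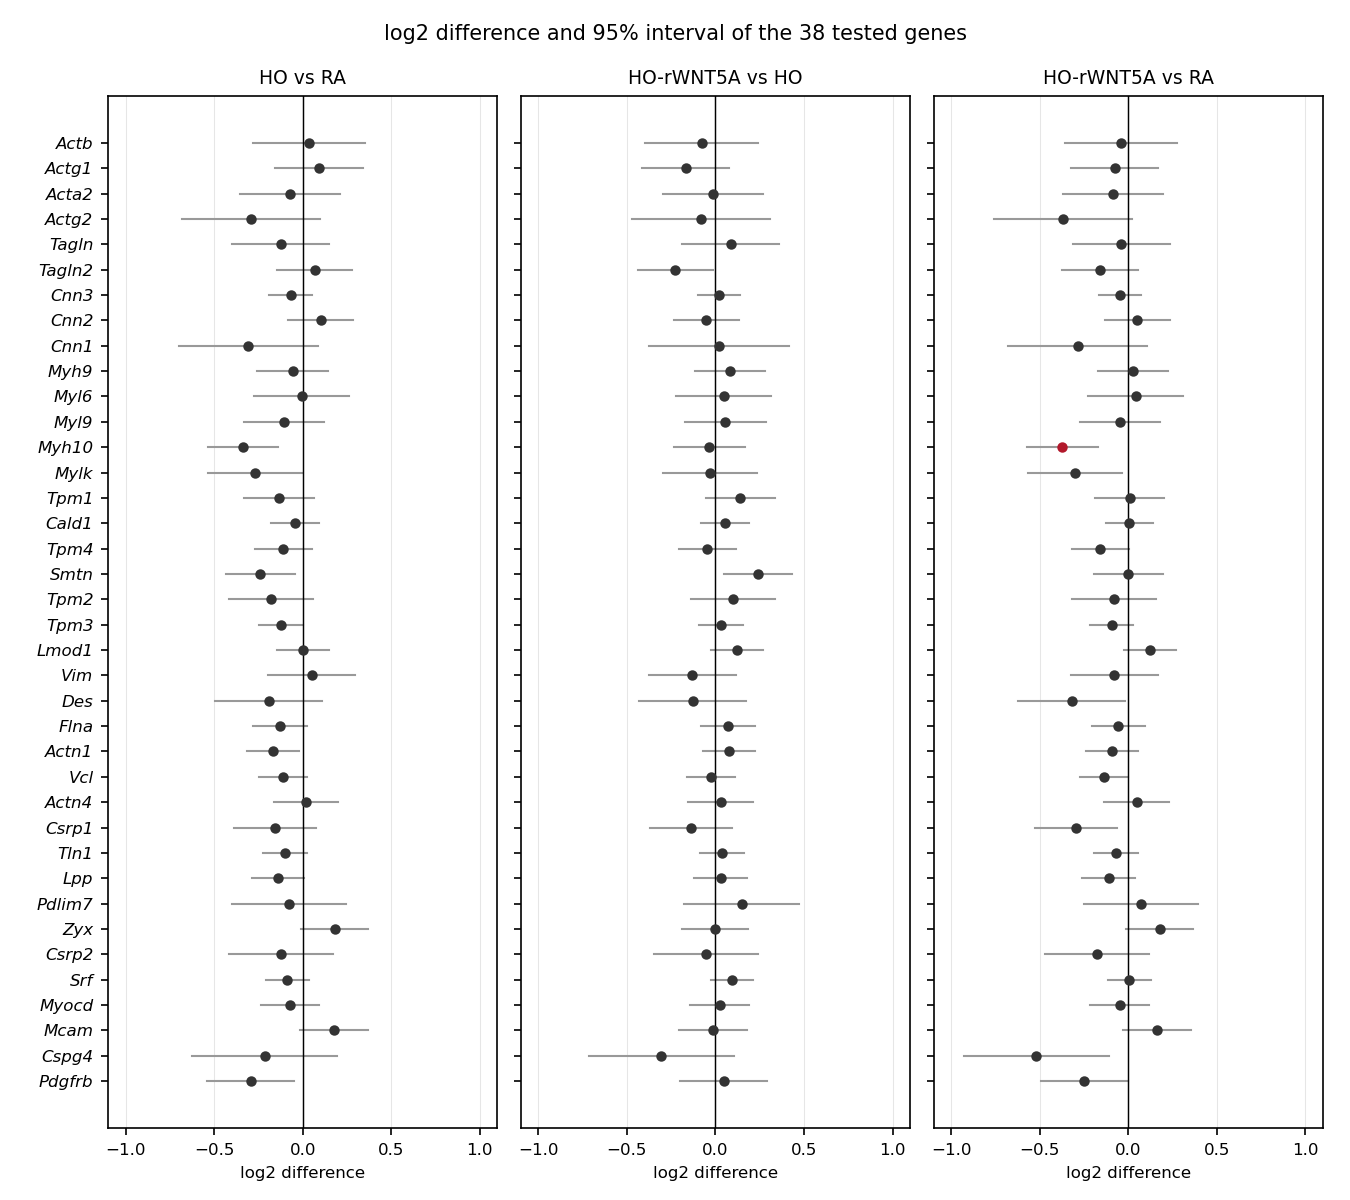
log2 difference (point) and 95% interval (line) of the 38 tested genes in HO vs RA, HO-rWNT5A vs HO and HO-rWNT5A vs RA, with the gene past the threshold in red. Points lie left of 0 for 30, 17 and 26 genes, and Myh10 in HO-rWNT5A vs RA is the only red point.

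Within a group, many listed genes were high or low in the same library. HO-rWNT5A replicate 1 was the highest of its group for 29 of 38 genes (36.8% of all tested genes) and HO replicate 1 for 24 (29.4% of all). HO replicate 3 was the lowest for 26 (37.5% of all), and RA replicate 2 for 24 (31.5% of all). The median SD between libraries was 0.155 log2 units in HO for the listed genes, against 0.123 for all genes, and smaller in HO-rWNT5A (0.0779 against 0.083) and RA (0.0676 against 0.0738). Small structural RNA took 20.1% of the FPKM of HO replicate 3, against 27.4% and 26.5% in HO replicates 1 and 2; whether this moved the listed genes was not tested. RA replicate 1, with a share of 21.4%, was the highest of its group for 14 of the 38 genes and the lowest for 10. In HO-rWNT5A replicates 1, 2 and 3 the share was 28.1%, 26.1% and 23.45%. In that order they were the highest of their group for 29, 3 and 6 genes and the lowest for 4, 18 and 16. The 41 genes held 5.55% to 5.76% of protein-coding FPKM in HO-rWNT5A, 5.35% to 5.91% in HO and 5.70% to 5.96% in RA.

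**Figure D5:**
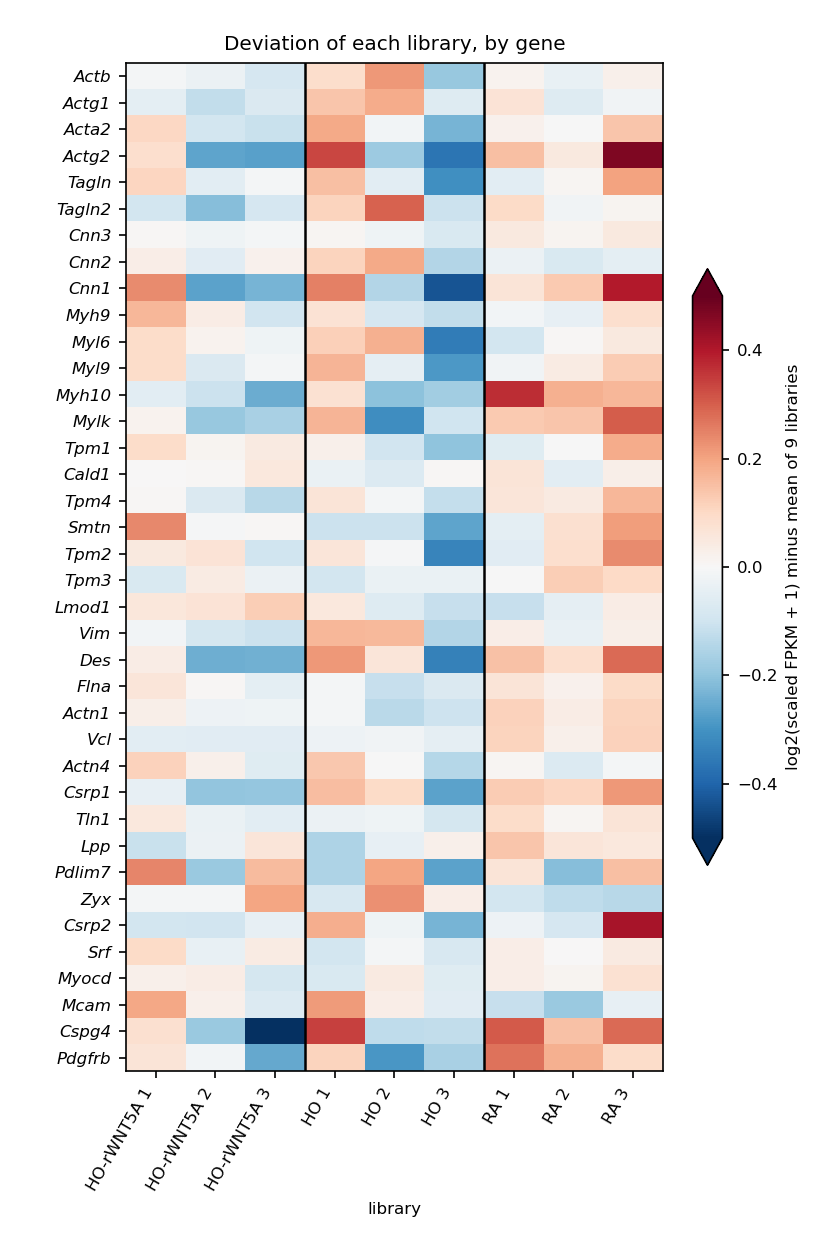
Deviation of each library from the mean of the 9 libraries for each of the 38 tested genes, as log2(scaled FPKM + 1), with HO-rWNT5A, HO and RA from left to right. HO replicate 3 is blue for most genes and HO replicate 1 red for most, and the Myh10 row is red in the 3 RA libraries and blue in all others but HO replicate 1.

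Single transcripts gave no call either; fragments of shared exons are divided between transcripts by estimation, so their values are less certain than gene sums. Of 168 tested transcripts of the listed genes, none passed at an adjusted p under 0.05, against 0.0153%, 0.0115% and 0.0382% of all 26158 tested transcripts in HO vs RA, HO-rWNT5A vs HO and HO-rWNT5A vs RA. An unadjusted p under 0.05 was found for 30 (17.9%), 19 (11.3%) and 17 (10.1%) in the same order, against 11.2%, 6.78% and 11.1% of all. For 26 of the 41 genes 1 transcript held at least 80% of the gene.

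The other 15 were mixtures, and some mixtures differed between libraries of 1 group. Of Pdlim7, a transcript with a retained intron, Pdlim7-209, made 36.0%, 67.8% and 29.9% in HO-rWNT5A, 69.2%, 27.8% and 66.7% in HO, and 33.2%, 68.0% and 36.5% in RA. The main coding transcript of Pdlim7, of 457 codons, did the reverse and ranged between 1.72% and 60.5%. Of Cald1, the coding transcript Cald1-204 of 536 codons made 29.1% in HO-rWNT5A replicate 3 and 66.8% to 77.8% in the other 8 libraries. Other mixtures had an RA range apart from HO-rWNT5A and HO, and the examples below were picked for this. They come from 68 transcripts with at least 10% of their gene and are a description, with no test and no count of such cases. A retained-intron transcript of Cnn3 made 17.9% to 26.2% in HO-rWNT5A, inside the 10.3% to 28.2% of HO, and 30.1% to 40.3% in RA. One of Myl6 made 27.5% to 31.6% in HO-rWNT5A, 24.7% to 27.3% in HO and 17.0% to 22.6% in RA.

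The wider actin and SRF pathways, and further markers, were read from 9 lists with 155 tested genes. Of these, 5 passed in HO against RA (3.23%, with 1.97% of all tested genes) and 12 in HO-rWNT5A against RA (7.74%, with 4.26% of all). An unadjusted p under 0.05 was reached by 22.6% and 30.3% of them, against 18.1% and 20.9% of all genes. In HO-rWNT5A against HO none passed in limma, and 11 (7.1%) had an unadjusted p under 0.05, against 9.2% of all genes. Among 28 tested SRF cofactors and targets, 2 rose in HO against RA (7.14%) and 4 in HO-rWNT5A against RA (14.3%), and none fell. Over all genes, 1.97% and 4.26% were called in either direction, 167 higher and 106 lower, and 331 higher and 258 lower. The lists were chosen with earlier results of these data known, so their shares are a description and no independent support. Egr1, an immediate-early transcription factor, had 32.3 ± 1.57 scaled FPKM in HO-rWNT5A, 34.9 ± 1.16 in HO and 21.4 ± 1.30 in RA (SD, n = 3), with log2 differences of 0.57 for HO-rWNT5A and 0.68 for HO from RA (limma adjusted p = 0.0034 in both), and passed in all 20 and 19 alternatives of HO and HO-rWNT5A against RA. Egr3 rose in both as well (0.44 in HO-rWNT5A and 0.63 in HO; limma adjusted p = 0.016 and 0.011), and Fos (0.34, limma adjusted p = 0.030) and Fosb (0.45, limma adjusted p = 0.026) rose in HO-rWNT5A. Ccn2 (1449 FPKM) and Ccn1 (277 FPKM), secreted matricellular proteins listed as SRF targets, did not pass.

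Of 39 tested focal adhesion and LIM genes, Ajuba and Bcar1 rose and Synpo and Ldb3 fell in HO-rWNT5A against RA (10.3%, with 4.26% of all tested genes). Tns1 fell in HO against RA (2.56%, with 1.97% of all). Ajuba, a LIM scaffold, had 29.0 ± 1.61 scaled FPKM in HO-rWNT5A, 25.1 ± 1.25 in HO and 21.2 ± 0.046 in RA (limma adjusted p = 0.0053 for HO-rWNT5A against RA). Bcar1 (p130Cas), an adaptor that is stretched at adhesions, had 111 ± 2.98, 101.3 ± 4.93 and 86.8 ± 0.627 in the same order (limma adjusted p = 0.0093). Synpo, synaptopodin, which binds alpha-actinin, had 10.6 ± 0.44, 12.1 ± 0.402 and 13.99 ± 0.42 (limma adjusted p = 0.0084). These 3 passed in all 19 alternatives.

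Of 47 tested genes of actin dynamics, the formin Diaph3 fell in HO-rWNT5A against RA (2.13%, with 4.26% of all tested genes). Of the 12 tested further mural markers, Notch3, a receptor that maintains mural cells, rose in HO against RA (8.33%, with 1.97% of all genes). Its level was 8.06 ± 1.15 against 4.76 ± 0.809 scaled FPKM. Angpt1 and Nt5e fell in HO-rWNT5A against RA (16.7%, with 4.26% of all). Of the 21 tested further smooth muscle genes, Ldb3 and Crip1 fell in HO-rWNT5A against RA (9.52%, with 4.26% of all). Of the 17 calls in these lists, those on Egr1 (both comparisons), Ajuba, Bcar1 and Synpo passed in every alternative run, and the other 12 were lost in 2 to 10, with highest limma adjusted p of 0.062 to 0.236. Most losses came with a library left out: RA replicates 1, 2 and 3 ended 11, 12 and 10 of the 17 calls, HO-rWNT5A replicates 1, 2 and 3 ended 7, 8 and 7 of 12, HO replicate 2 ended 2 of 5 (Notch3 and Wt1), and HO replicates 1 and 3 ended none.

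The sums over markers of other cell types were not tested. The summed level of the 12 fibroblast markers was 209 to 280.2 scaled FPKM in HO-rWNT5A, 234 to 283 in HO and 286 to 304 in RA. None of the 6 tested ones passed. In HO vs RA, HO-rWNT5A vs HO and HO-rWNT5A vs RA, 1, 1 and 4 had an unadjusted p under 0.05 in limma. These were 16.7%, 16.7% and 66.7% of the 6, against 18.1%, 9.2% and 20.9% of all tested genes. The 7 mesothelial markers summed to 30.6 to 33.5 in HO-rWNT5A, 27.4 to 30.3 in HO and 33.6 to 37.4 in RA, where Wt1 fell in HO (limma adjusted p = 0.034) and Msln and Upk3b were under 1 FPKM. Both sums were lower in every HO-rWNT5A and HO library than in any RA library, as Myh10 was, and their part in that result was not tested. Most of the first sum was Col1a1 (183 FPKM) and Col1a2 (45.2 FPKM), and most of the second was Wt1 (23.4 FPKM). Krt19, the next highest mesothelial marker, averaged 7.51 scaled FPKM in HO-rWNT5A, 6.79 in HO and 6.52 in RA. The 13 endothelial markers summed to 40.9 to 50.6 in HO-rWNT5A, 49.0 to 56.0 in HO and 51.3 to 55.8 in RA. None of the 4 tested endothelial or the 4 tested striated muscle genes passed in limma. In HO-rWNT5A against RA, 1 of each (25.0%) had an unadjusted p under 0.05, against 20.9% of all tested genes. The endothelial marker Egfl7 was tested because its mean before scaling reached 1 FPKM, and it had 0.996 FPKM after scaling.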

How the data were processed

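The deposited table holds FPKM of transcripts in 9 libraries. Per the labels' protocols, the authors trimmed reads with Skewer 0.2.2, aligned them with STAR 2.5.3a and assembled and merged transcripts with StringTie 1.3.1. The table's 142351 Ensembl transcripts were matched to GENCODE M21 (GRCm38; 99.4% found). FPKM was summed per gene, scaled by the median ratio of the tested genes to their geometric mean, and tested as log2(scaled FPKM + 1), which understates changes of low genes. Genes were tested where the mean before scaling reached 1 FPKM. The tests were limma 3.58.1 in R 4.3.3 over all 9 libraries with a variance trend, two-sided, Benjamini-Hochberg over all genes tested, at 0.05. With 3 libraries a side, the smallest p of an exact permutation test is 0.1. FPKM hides depth. A rough estimate from the steps of low values was 21300000 to 26500000 fragments per library. Only 4.86% to 6.3% of values were whole multiples within 0.02, so this estimate is uncertain and no counts were recovered. The use of strand in counting is not given in the sources used here, so overlapping antisense genes are not separated. The listed genes and the context lists were chosen with earlier results of these data known. All 41 genes are named, with context genes past the threshold, those of smallest p and those of highest level. One context list is not reported here. Alternatives were pseudocounts of 0.1 and 5, other filters, other scalings, variance settings, the compared groups alone, a replicate block, Ensembl transcripts alone and leaving out libraries. Scripts were tested on simulated data. Plots were made with matplotlib 3.10.9.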

Additional observations from a re-analysis of the deposited data

How the results depend on the processing

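The number of listed genes past the threshold in HO vs RA was 0 in 19 of 20 alternatives and 1 (Myh10) without HO replicate 1. Leaving out 1 HO or RA library thus gave 0 to 1. In HO-rWNT5A vs HO it was 0 in all 20. In HO-rWNT5A vs RA it was 0 with no filter, with no variance trend and without any 1 HO-rWNT5A or RA library (0 to 0). It was 2 (Csrp1 and Myh10) with quantile normalization and with the 2 compared groups alone. In the test of any difference it was 1 with quantile normalization (Csrp1), 1 with the replicate block (Myh10), 2 (Csrp1 and Myh10) without HO replicates 2 and 3, an alternative chosen after seeing the data, and 0 to 2 without 1 library (1 without HO replicate 1, Myh10, and 2 without HO replicate 3, Csrp1 and Tagln2). No called listed gene changed sign, and the median of the listed genes kept its sign in each comparison under every scaling, while 18, 21 and 10 of 38 genes without a call had another sign in at least 1 alternative in HO vs RA, HO-rWNT5A vs HO and HO-rWNT5A vs RA. When 1 library of the 2 compared groups was left out, all-gene calls in HO vs RA moved from 273 to between 3 and 707. Those in HO-rWNT5A vs HO moved from 1 to between 1 and 27, and those in HO-rWNT5A vs RA from 589 to between 124 and 209. The highest counts in the first and second came without HO replicate 3. FPKM as deposited gave 103 higher and 179 lower genes in HO vs RA and 209 higher and 615 lower in HO-rWNT5A vs RA, equal totals gave 26 and 30, and 93 and 164, against 167 and 106, and 331 and 258, as reported; the cause was not tested. With the values as deposited the median of all genes shifted to -0.06 in both comparisons with RA and that of the listed genes to -0.17 and -0.14. Same-numbered libraries correlated above 0.1 in 3 of 9 pairs, with r between -0.1183 and 0.2797. With 3 libraries a group this cannot decide whether the numbers pair the samples, so pairing stays unknown. The replicate block moved the all-gene counts to 116, 2 and 393.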
